A study of Mus musculus with 3 samples.

Results

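Interior stretches are long runs of chromosome that lie between lamina-associated domains (LADs) and contain none. They were selected on the LAD list labelled Dam-Lamin A, as the gaps of at least 1 Mb between neighbouring domains on the 19 autosomes. The rule found 297 of 1985 autosomal gaps, or 15% by number. They added up to 776.2 Mb, which was 70.5% of the length of all such gaps and 32.1% of the autosomal span. The domains that set these gaps are the authors' calls on the same experiment. Low levels inside the stretches therefore follow from the rule and are described here without a test.

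The nuclear lamina is a protein mesh that lines the inner nuclear membrane. Chromatin held against it tends to be gene-poor and silent, while chromatin between LADs tends to hold active genes and to lie deeper in the nucleus. DamID records contact through a protein fused to Dam, a bacterial methyltransferase that marks adenine within GATC in nearby DNA. Unfused Dam, free to move through the nucleus, methylates mostly accessible chromatin and serves as the control.

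Wild-type mouse embryonic fibroblasts of strain C57BL/6 had received, by retroviral transduction, one of the fusions Dam-Lamin A and Dam-Lap2b or unfused Dam (Dam Only). Lamin A polymerises into filaments of the lamina, and Lap2b spans the inner nuclear membrane and binds lamins. Each of the 3 groups had 1 sample, so differences had no replicate check. Expression of the fusions from a virus is a limit of the model, and a DNA profile holds no marker genes by which the cell type could be checked. The profiles gave 1 log2 value for each fragment between GATC sites. Apart from a constant, each value was the log2 ratio of fusion reads to reference reads after 1 was added to both, and the reference was presumed to be the Dam-only sample. Autosomal reads recovered from these ratios summed to at least 132657425 in the Dam-Lamin A library, 142555159 in that of Dam-Lap2b and 147996034 in the reference. Fragments were averaged in bins of 10 kb that held at least 5 fragments, and a level below means such an average. The Lamin A profile and the Lap2b profile are those labelled Dam-Lamin A and Dam-Lap2b, and the Lamin A list and the Lap2b list of LADs are likewise named by their labels alone. Genes and sequences are not given, because the gene tables at hand belong to another genome build than the files, mm9.

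Not every gap of 1 Mb held chromatin that had been measured. In 3 of the 297 gaps no fragment was listed. They were chr1:85343679-87343678, chr7:39356195-46356194 and chr8:56209066-57909065, with lengths of exactly 2000000, 7000000 and 1700000 bp, and the Lap2b list had the same 3 gaps to the base. Another gap, chr8:19698405-22038713, had fragments over 12.3% of its length and one run of 2001372 bp without any. Its 30 bins averaged 0.75 in the Lamin A profile and 0.71 in the Lap2b profile, and its median bin held 307.1, 393.5 and 256.1 reads per kb of Dam-Lamin A, Dam-Lap2b and the reference. These 4 gaps are members by length for which no depletion was measured, and they were left out of the values that follow. The other 293 stretches had fragments over 88.4% or more of their length (median 99.3%). They covered 763.1 Mb in 76063 bins.

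The depth of depletion was asked first. The stretches averaged −1.0 ± 0.75 (SD over bins) in the Lamin A profile and −1.02 ± 0.74 in the Lap2b profile. The autosomal bins as a whole averaged 0.19 ± 1.33 and 0.26 ± 1.26, and the LADs of the Lamin A list 1.17 ± 0.82 and 1.25 ± 0.61. All 293 stretches had a mean below 0 in both profiles. The mean of a stretch ran from −1.42 through a median of −1.02 to −0.24 in the Lamin A profile, with an SD of 0.21 over stretches. In the Lap2b profile it ran from −2.45 through −0.88 to −0.17, with an SD of 0.34. Stretches thus differed more from each other in the latter profile, while within a stretch the median SD over bins was similar, at 0.72 and 0.62. Below −1 lay 153 stretches in the Lamin A profile and 104 in the other.

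The recovered reads show which libraries changed between classes of sequence. Per kb, the median bin of the stretches held 37.4 reads of Dam-Lamin A, 39.1 of Dam-Lap2b and 79.1 of the reference. In LADs of the Lamin A list the same medians were 57.8, 68.0 and 25. The reference was therefore 3.16-fold higher in the stretches than in LADs, whereas Dam-Lamin A was 1.54-fold and Dam-Lap2b 1.74-fold higher in the LADs. On these numbers the presumed Dam-only library varied more between the 2 classes than either fusion did. Both classes come from a list called on the same experiment, and reference reads are the denominator of every level. A higher reference in the stretches is thus in part given by the choice of classes, and its cause was not tested. The number of GATC fragments, which the readout does not set, was near equal, with a median of 24 per bin in the stretches and 25 in LADs. A median bin of the stretches rested on 372, 387 and 783 reads of the 3 libraries.

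**Figure D1:**
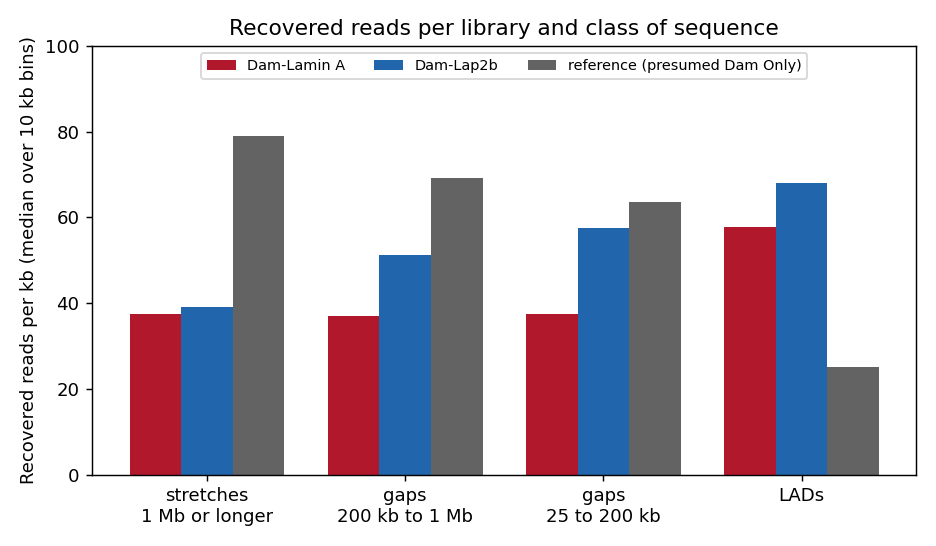
Recovered reads per kb (vertical axis, median over 10 kb bins, linear from 0) for the 2 fusion libraries and the presumed Dam-only reference, in 4 classes of autosomal sequence set by the Lamin A list. The reference stands at 79.1 in the stretches and at 25 in LADs, and Dam-Lap2b falls from 57.6 in gaps of 25 to 200 kb to 39.1 in the stretches.

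Shorter gaps of the same list were less depleted, and more so in one profile than in the other. The 537 gaps of 200 kb to 1 Mb averaged −0.84 in the Lamin A profile and −0.52 in the Lap2b profile. The 725 gaps of 25 to 200 kb averaged −0.65 and −0.22. The gap classes thus differed more in the latter profile, in which the stretches stood at −1.02. No bin of a gap of 25 to 200 kb lies more than 100 kb from a LAD. Within 50 kb of an end, stretch bins averaged −0.56 in the Lamin A profile and −0.45 in the Lap2b profile. At 50 to 100 kb they averaged −0.74 and −0.58. The classes are not matched for distance to a LAD, and its part in their contrast was not tested. Dam-Lamin A reads per kb were almost level across these classes, at 37.5, 36.9 and 37.4, while Dam-Lap2b reads went from 57.6 through 51.3 to 39.1 and reference reads from 63.5 through 69.3 to 79.1.

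The same order held among the stretches themselves. The 91 stretches of 1 to 1.5 Mb averaged −0.96 and −0.82 in the Lamin A and Lap2b profiles. The 100 of 1.5 to 2.5 Mb averaged −0.97 and −0.91, and the 73 of 2.5 to 5 Mb −1.01 and −1.03. The 29 stretches over 5 Mb, which held 26.4% of the length, averaged −1.02 and −1.24. Length went with the level of the Lap2b profile (Pearson's r −0.39, Spearman's rho −0.40 over 293 stretches) and hardly with that of the other (r −0.09, rho −0.03). GATC fragments per 10 kb did likewise, with r −0.33 and rho −0.31 for the Lap2b profile and r 0.05 and rho 0.10 for the other. The parts of length and of fragment density were not told apart. These coefficients are descriptions over stretches of the same libraries, which share their reference.

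Levels of members just inside the limit of 1 Mb overlapped those of gaps just outside it. The 3 shortest members, chr5:38086196-39086649, chr3:40408521-41422839 and chr8:36434163-37451296, averaged −0.57, −0.92 and −0.98 in the Lamin A profile and −0.66, −0.47 and −0.58 in the other. The 3 longest gaps below the limit, of 999, 997 and 996 kb, averaged −0.60, −0.85 and −1.14 and −0.57, −0.70 and −0.74.

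Levels inside a stretch were then set against the distance to its nearer end. In the first 50 kb they averaged −0.56 ± 0.84 and −0.45 ± 0.65 in the Lamin A and Lap2b profiles, against 0.46 ± 0.72 and 0.51 ± 0.48 in the 50 kb of LAD just outside. At 100 to 200 kb they were −0.88 and −0.77, and at 200 to 500 kb −1.02 and −0.94. Beyond 500 kb the Lamin A profile stayed near its level, at −1.04, while the Lap2b profile was lower again, at −1.15. Mean levels thus went on falling for 200 kb or more inside the stretches in both profiles. The stretches include 238 pieces of LADs of the Lap2b list that cross an end, over 8.82 Mb. The part of these pieces in the slope was not tested.

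**Figure D2:**
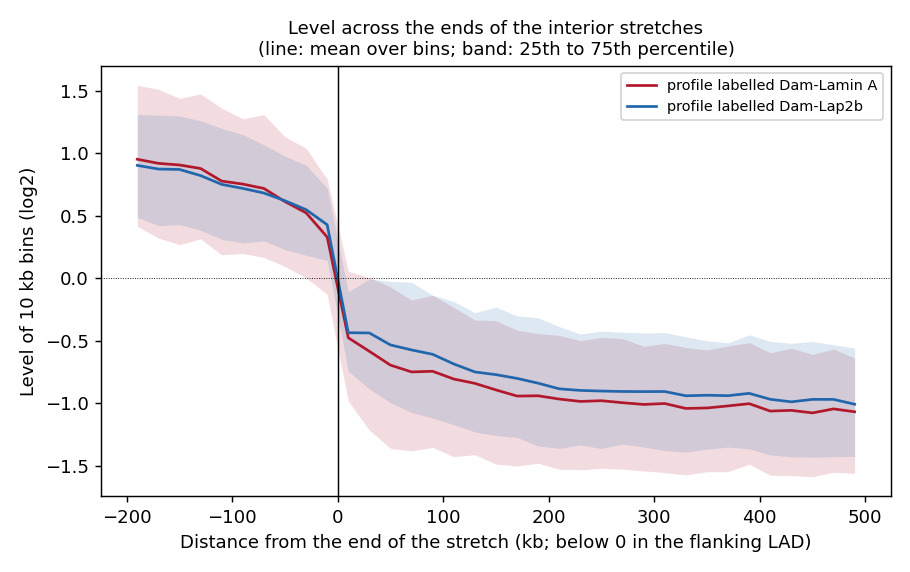
Level of 10 kb bins (vertical axis, log2) against the distance from the end of a stretch in kb (horizontal axis), for both profiles over 293 stretches and the LADs that flank them. Lines are means over bins and bands run from the 25th to the 75th percentile of bins. Both lines cross 0 at the end and go on falling to near −1 at 500 kb inside.

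Far from an end, depth in the Lap2b profile also went with the length of the stretch. Bins more than 500 kb from both ends averaged −0.99 in the Lap2b profile for stretches of 1 to 1.5 Mb, −1.01 for those of 1.5 to 2.5 Mb, −1.10 for those of 2.5 to 5 Mb and −1.30 for those over 5 Mb. In the Lamin A profile the same 4 values were −1.08, −1.04, −1.04 and −1.05. This class is not matched for distance, since longer stretches hold bins farther from an end. At 200 to 500 kb the Lap2b profile averaged −0.87, −0.94, −0.95 and −1.08 in the same order of length. The Lamin A profile there averaged −1.02, −1.02, −1.02 and −1.05. Close to the ends the longest stretches were no lower than the others, with −0.54 and −0.50 in the first 100 kb, against −0.68 and −0.50 in those of 1 to 1.5 Mb.

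The longest stretches show the range of form. The longest, chr4:128278329-141714375 (13.44 Mb), averaged −0.92 and −1.51 in the Lamin A and Lap2b profiles. The second, chr9:55716252-67882994 (12.17 Mb), averaged −1.19 and −1.22. The third, chr2:24148358-36135954 (11.99 Mb), averaged −1.24 and −1.49. These were followed by chr17:23667658-32689045 (9.02 Mb), with −1.11 and −1.6, and chr1:87560614-95982328 (8.42 Mb), with −1.11 and −1.21. Bins above 0 made up 3.21% and 2.47% of the stretch on chromosome 9 and 2.84% and 1.42% of that on chromosome 2. On chromosome 4 they made up 12.1% in the Lamin A profile and 2.17% in the other.

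That chromosome 4 stretch was interrupted in the other list. LADs of the Lap2b list touched it at 6 places and covered 11.4% of it, while the stretches on chromosomes 9, 2 and 17 were touched by none. The pieces at chr4:130521510-130804925 and chr4:130817679-131387627 averaged 0.27 and 0.49 in the Lamin A profile and −0.27 and −0.22 in the Lap2b profile. Those at chr4:139437950-139651387 and chr4:139820644-140056298 averaged 0.35 and 0.17 against −0.62 and −0.78. The means of these 4 pieces lay above the mean of the stretch in both profiles, and above 0 in the Lamin A profile alone. Single bins of the Lap2b profile did pass 0 in the first pair, 6 of 28 and 17 of 57, and in the second pair none of 21 and none of 24 did.

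**Figure D3:**
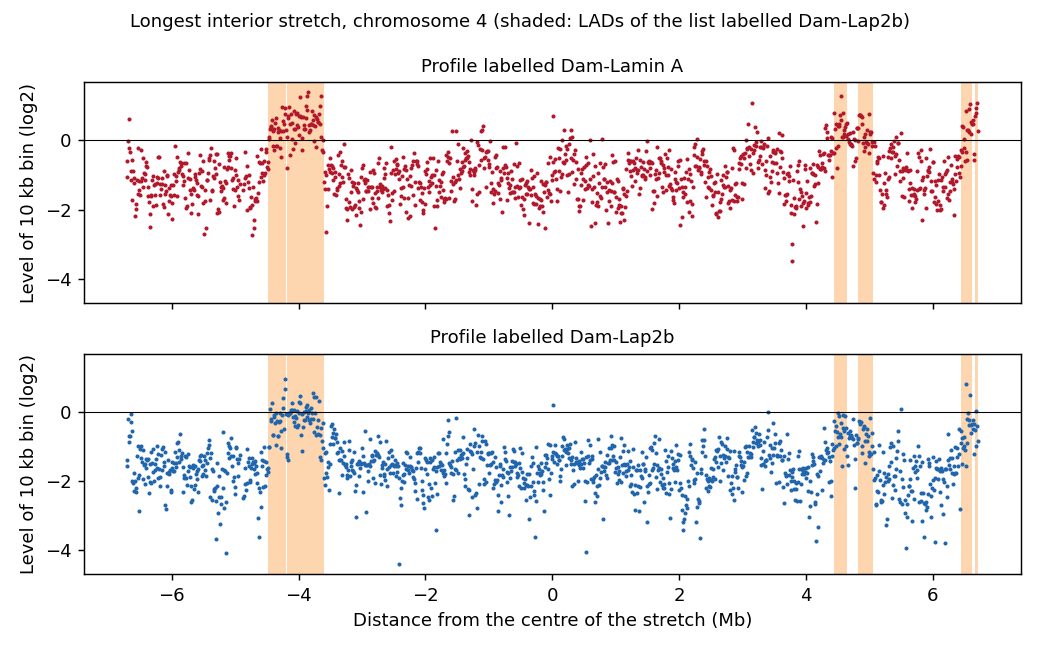
Level of each 10 kb bin (vertical axes, log2) in the 13.44 Mb stretch of chromosome 4, by distance from its centre in Mb (horizontal axis), with the Lamin A profile above and the Lap2b profile below. Shaded bands are LADs of the Lap2b list. The humps in these bands reach above 0 in the upper panel and mostly stay under 0 in the lower one.

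Positive patches inside the stretches were counted next. Bins above 0 made up 9.85% of the stretches in the Lamin A profile (95% Clopper-Pearson interval 9.64 to 10.1%) and 7.95% in the Lap2b profile (7.76 to 8.15%). Among all autosomal bins the shares were 54.2% and 57.7%. The intervals take bins as independent, which neighbours are not. The order of the profiles reversed, at 8.33% and 9.9%, when fragments were weighted by their length. Above 0 in both profiles were 3533 bins, or 4.64%, where the autosomal share was 51.3%. They were 47.2% of the positive bins of the Lamin A profile and 58.4% of those of the other. In gaps of 200 kb to 1 Mb, 17.0% and 22% of bins were above 0.

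A patch was taken as 2 or more neighbouring bins above 0. The Lamin A profile had 1346 patches (1.76 per Mb) and the Lap2b profile 1174 (1.54 per Mb). Most were small, since 733 and 638 spanned 20 kb. The mean level in patches was 0.47 and 0.38. In patches of the Lamin A profile the other profile averaged 0.00, and in patches of the Lap2b profile the other averaged 0.17. Patches without a single positive bin in the other profile numbered 373 and 198. In 11 stretches neither profile had a patch.

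Patches crowded toward the ends but were not confined to them. Within 50 kb of an end lay 14.9% of the patches of the Lamin A profile and 15.3% of those of the other, where 3.83% of the bins of the stretches lay. More than 200 kb from both ends lay 66.7% and 61.1% of patches and 84.7% of bins. The share of bins above 0 went from 26.2% and 22.5% in the first 50 kb to 7.66% and 4.98% beyond 500 kb.

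Since no LAD of either list is shorter than 100 kb, patches of that length or more were looked at apart. The Lamin A profile had 43 of them, and 40 lay over at least 50% of their length in a LAD of the Lap2b list. The Lap2b profile had 18, and 10 of these did so. LADs of that list covered 3.78% of the length of the stretches. Of its 106 LADs that lay whole within stretches, 88 were above 0 in the Lamin A profile and 32 in the Lap2b profile. The 40 of 43 is therefore no check of these patches by a second fusion. Among patches of any length the same held for 392 of 1346 (29.1%) in the Lamin A profile and 222 of 1174 (18.9%) in the Lap2b profile. The 3 longest of the former were chr15:83600001-83880000, chr11:113680001-113930000 and chr15:86310001-86540000, of 280, 250 and 230 kb. They averaged 0.46, 1.36 and 1.05 in that profile and −0.50, 0.08 and 0.38 in the other. The first lay 987 kb from the nearer end of its stretch and rested on 22508 fusion and 15505 reference reads, while the other two lay 3 and 0 kb from an end. The 3 longest of the Lap2b profile were chr6:35590001-35720000, chr8:89460001-89590000 and chr3:56300001-56420000, of 130, 130 and 120 kb. They averaged 0.65, 0.63 and 0.54 in that profile and 0.44, 0.85 and 0.17 in the other.

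Cover by the Lap2b list, which the authors called from the same experiment, was small. Its LADs took up 28.9 Mb, or 3.78%, of the stretches, where they took up 49.0% of the autosomal span (49.4% of autosomal bins), 6.95% of gaps of 200 kb to 1 Mb and 11.5% of gaps of 25 to 200 kb. No such LAD touched 92 of the 293 stretches, or 31.4% (95% interval 26.1 to 37.1%), and the median stretch was covered by 0.717%. The interval treats each stretch as an independent draw, although a single experiment gave them all, so it holds no spread between replicates. Whether 31.4% is unusual was not tested, since untouched gaps were not counted in the shorter classes. More than 20% was covered in 16 stretches. Of the stretches, 266 (90.8%) had at least 50% of their length in a single gap of 1 Mb or more of the other list, and 222 (75.8%) had at least 90%. In the other direction these numbers were 269 of 325 such gaps (82.8%) and 221 (68.0%).

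Most of this cover came from LADs that lay whole within a stretch. Entirely inside stretches lay 106 LADs of the Lap2b list over 20.04 Mb, with a median length of 152.2 kb. Another 238 pieces crossed an end and added 8.82 Mb, with a median of 15.6 kb and a longest of 456 kb. Of these, 9 were longer than the median whole LAD and made up 2.17 Mb. In the whole LADs the Lamin A profile averaged 0.25 ± 0.51 over 2002 bins and the Lap2b profile −0.21 ± 0.57. The former profile was above 0 in 88 of the 106 and the latter in 32, and the former was the higher in 96. In pieces across an end the levels were 0.35 ± 0.52 and −0.08 ± 0.56. Outside both kinds the stretches averaged −1.05 and −1.06, with 7.43% and 6.81% of bins above 0. LADs of the Lap2b list within stretches were thus more often positive in the Lamin A profile. The Lamin A list, which set the stretches, showed the opposite order, since 90.8% of the bins of its LADs were above 0 in the Lamin A profile and 97.1% in the Lap2b profile. In both cases the profile of the other label was the more often positive. Which profile each list was called from is not given in the sources used here beyond the shared label, and was not tested.

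The largest cover was 56.6%, in chr8:90121374-91321339, where one piece crossed the start and 1 LAD lay inside. This stretch averaged −0.32 and −0.71, with 43.3% and 10.8% of bins above 0. Next came chr9:105271820-106821129, covered by 40.7% and averaging −0.55 and −0.71, and chr2:172154050-173629055, covered by 36.4% and averaging −0.24 and −0.79. All 3 were under 2 Mb long and lay higher than the median stretch in both profiles, which stood at −1.02 in the Lamin A profile and −0.88 in the other.

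Where the profiles parted was described from the difference per stretch, Dam-Lamin A minus Dam-Lap2b, in which the shared reference cancels within each fragment. It ran from −0.88 through a median of −0.11 to 1.20, with an SD of 0.35. The Lap2b profile was the higher in 175 stretches (59.7%) and the Lamin A profile in 118. By bins, the Lap2b profile was the higher in 50.4% of the bins of the stretches and in 54.5% of all autosomal bins. The point of equal levels rests on the constants of the profiles, 0.085 in the Lamin A and 0.022 in the Lap2b profile, and with these subtracted the Lap2b profile was the higher in 186 stretches. The difference was above 0.5 in 24 stretches and below −0.5 in 22.

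**Figure D4:**
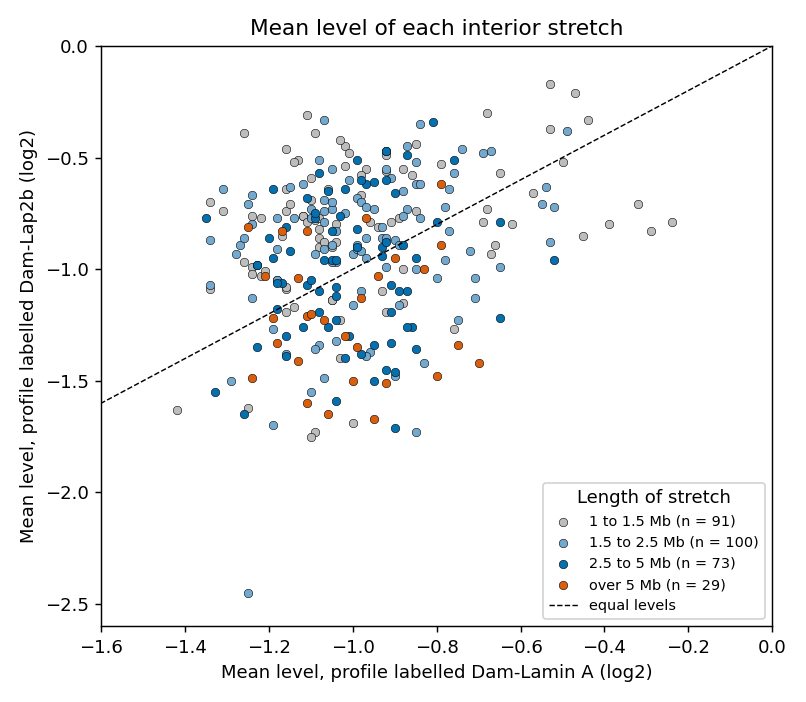
Mean level of each of 293 stretches in the Lamin A profile (horizontal axis, log2) and in the Lap2b profile (vertical axis, log2), coloured by length. The axes have different ranges and the dashed line marks equal levels. Most of the 29 stretches over 5 Mb lie below the line, and one of 2.14 Mb stands alone at −2.45 on the vertical axis.

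The stretch that stands apart is chr10:78980530-81123325. It averaged −1.25 in the Lamin A profile and −2.45 in the Lap2b profile, the lowest level of any stretch in the latter. Its median bin held 54.4, 19.2 and 157.1 reads per kb of Dam-Lamin A, Dam-Lap2b and the reference, so the first and the third were above their medians over all stretch bins and the second was below its own. It had no patch in either profile and no LAD of the other list. The next 2 in this direction lay close together on chromosome 5, chr5:139041315-141369935 with −0.85 and −1.73 and chr5:134513452-138279595 with −0.90 and −1.71. In the opposite direction were chr2:50099934-51333993 with −1.26 and −0.39, chr13:5175832-6257434 with −1.11 and −0.31, and chr10:16134939-18271757 with −1.07 and −0.33. Those 3 held 25.5, 28.4 and 24.6 reads per kb of Dam-Lamin A, all below the 37.4 of the stretches, and 53.1, 58.5 and 47.7 of Dam-Lap2b, all above 39.1.

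Other properties went with this difference. The 73 stretches with the lowest difference (median −0.43) had a median length of 1.59 Mb, 24.1 GATC fragments per 10 kb and 72.5 reference reads per kb. The 73 with the highest (median 0.41) had 2.37 Mb, 24.9 fragments and 90.5 reads. The levels of the profiles lie apart between these groups by construction, with medians of −1.10 and −0.92 in the Lamin A profile and −0.63 and −1.36 in the other. Over the 293 stretches the difference went with length (r 0.32, rho 0.31), with fragment density (r 0.36, rho 0.36) and with reference reads (r 0.34, rho 0.28). The part of fragment density and of reference depth in the difference was not tested.

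The lowest and highest stretches by the mean of both profiles also stood apart in the reference. The lowest were that of chromosome 10, chr19:9898450-11068911 with −1.42 and −1.63, and chr3:87302503-90523238 with −1.26 and −1.65. They held 157.1, 134.0 and 124.3 reference reads per kb. The highest were chr19:24683926-25750380 with −0.47 and −0.21, chr18:7856086-8961061 with −0.53 and −0.17, and chr8:88724308-89765119 with −0.44 and −0.33. They held 41.0, 40.9 and 67.8. Since reference reads are the denominator of every level, this order is in part given by the ratio itself.

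Single bins went far lower. The lowest bin of the Lamin A profile, chr7:119190001-119200000, stood at −3.86 with 109 reads of that fusion and 1274 of the reference over 14 fragments, and at −1.51 in the other profile. The lowest of the Lap2b profile, chr11:69750001-69760000, stood at −5.31 with 59 and 4957 reads over 12 fragments, and at −0.72 in the Lamin A profile. Both were the lowest of all autosomal bins in their profile. In both the other fusion was far less depleted, which picking the minimum of each profile favours in advance.

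Placement along the genome was uneven. Chromosome 11 had the largest share of its span in stretches, 42.1% in 15 stretches, followed by chromosome 17 with 39.9% and chromosome 15 with 38.6%. Chromosomes 14, 3 and 1 had the smallest, with 23.6%, 23.9% and 26.6%. Chromosome 1 held the most stretches that were measured, 20, and chromosomes 16 and 19 the fewest, with 9 each. The median stretch was 4.05 Mb long on chromosome 2 and 3.35 Mb on chromosome 11, against 1.52 Mb on chromosome 14 and 1.96 Mb over all.

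**Figure D5:**
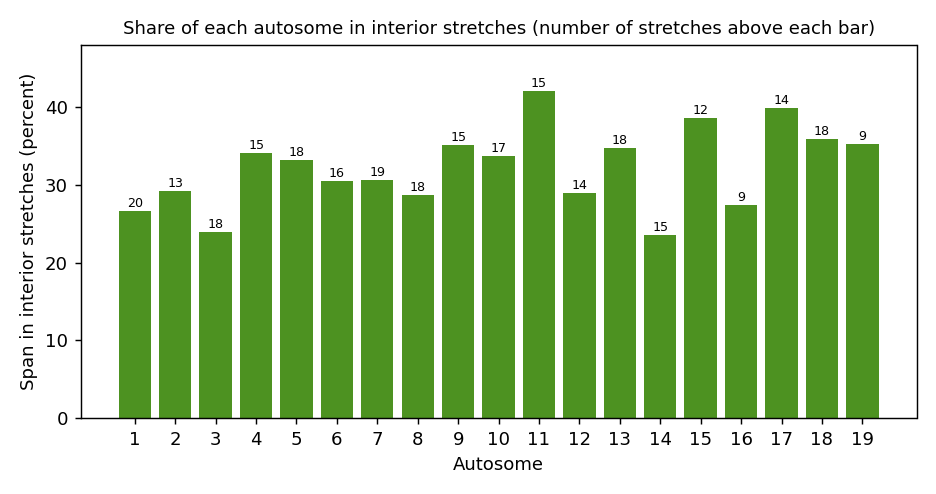
Percent of the span of each autosome (vertical axis, linear from 0; horizontal axis, chromosome) that lay in the measured stretches, with the number of stretches above each bar. Bars run from 23.6% on chromosome 14 to 42.1% on chromosome 11.

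The profiles parted by chromosome as well. Over the bins of its stretches, chromosome 5 averaged −0.86 and −1.24 in the Lamin A and Lap2b profiles, the largest difference in that direction (0.38), and chromosome 11 came next with −0.93 and −1.18. Chromosome 13 averaged −1.03 and −0.75, the largest in the other direction (−0.28), and chromosome 3 −1.07 and −0.83. Cover by LADs of the Lap2b list went from 0.552% on chromosome 13 to 7.58% on chromosome 4.

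Mouse autosomes have the centromere at one end, before the first fragment. Split from the first fragment into 5 parts of equal length, the autosomes had 22.7%, 33.7%, 31.1%, 35.8% and 35.4% of their bins in stretches. The part next to the centromere thus held the least. Its level and that of the last part lay in opposite order in the profiles, with −1.08 and −0.87 in the Lamin A profile and −0.97 and −1.15 in the other. The rule needs a LAD on both sides, so it passed over 5 autosomes with 1 Mb or more after their last LAD, 15.6 Mb in all, and 6 with as much before their first.

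The LADs beside the stretches were ordinary in length. The 532 flanking LADs had a median of 312 kb, against 325 kb for all autosomal LADs of the list. Between neighbouring stretches, with nothing else in between, lay 54 single LADs with a median of 380 kb. Of these 9 (16.7%) were under 200 kb, against 30.6% of all. The 54 LADs averaged 1.14 in the Lamin A profile and 1.03 in the other, against 1.17 and 1.25 for all autosomal LADs of the list.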

How the data were processed

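The authors deposited a profile and a LAD list for each fusion, without headers. The submitters' processing notes name Bowtie and mm9; versions, counting, normalization and the domain caller are not given in the sources used here. The deposited profiles hold log2 values per GATC fragment, of which both had the same 6415372. Whole reads were recovered as the smallest numbers that gave both values with 1 denominator of up to 5000, for 99.9969% of fragments; they are lower bounds, and adding 1 read draws the values of thinly read fragments toward their constant. Coordinates are mm9, counted from 1. A bin belonged to the region that held its middle, and a stretch was measured when fragments filled at least 50% of it, a limit set after seeing the data. Regions named are the extremes of length, level, difference, cover and patches. The members and lists were chosen with earlier results of these data known. With 1 sample per group no test was run. Python 3.11.15, numpy 2.4.6 and scipy 1.17.1 were used, and the steps were tested on simulated data. No Dam-only file was used here.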

Additional observations from a re-analysis of the deposited data

How the results depend on the processing

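The number of stretches ranged from 206 (limit of 1500 kb) to 376 (limit of 750 kb), their length from 662.4 to 907.9 Mb, the mean of the Lamin A profile from −1.07 to −0.90 and that of the Lap2b profile from −1.06 to −0.88, so no mean changed sign. The Lap2b profile was the higher in 172 to 199 stretches under 4 settings chosen after seeing the data. A value counted as moved when it left the 95% binomial interval (shares), changed by over 0.1 (levels) or by over 1.5 times (counts and lengths), and 46 of 123 values did. For shares of bins and of length the interval took 76063 bins as independent, which neighbours are not. It was therefore too narrow, and small shifts in these shares counted as moved. For the share of untouched stretches the interval likewise treated each stretch as an independent draw. In what follows the Lamin A profile comes first and the Lap2b profile second. The share of bins above 0 became 10.5% and 8.91% with a length limit of 750 kb and 9.49% and 7.3% with 1500 kb. It became 12.1% and 9.54% with bins of 5 kb, 7.87% and 6.51% with bins of 25 kb, 13.9% and 10.9% with the median over fragments, and 8.33% and 9.9% with weights by fragment length, which reversed the order of the profiles. It became 9.2% and 7.37% without 50 kb at each end, 10.3% and 8.63% from summed recovered reads (chosen after seeing the data), 5.84% and 4.04% above a level of 0.25, and 3.2% and 2.04% above 0.5. Gaps of the Lap2b list gave 9.33% and 11.8%, again with the order reversed, and by construction a cover of 0% with 100% of gaps untouched. Leaving out LADs under 200 kb, which merges gaps across them, gave 13.9% and 13.6%, 2137 and 2095 patches, a mean of −0.88 in the Lap2b profile, a cover of 7.35% and 19.8% of stretches untouched. Patches numbered 3481 and 2902 with bins of 5 kb, 470 and 414 with bins of 25 kb, 752 and 508 above 0.25, 350 and 200 above 0.5, 4444 and 3602 when 1 bin sufficed, and 613 and 536 when 3 were needed. Cover was 4.12% with the limit of 750 kb and 3.65% with 1500 kb, and 44.4% of stretches were untouched when 10 kb of overlap was needed. The cause of these shifts was not tested beyond what each alternative changes by construction. No paired analysis was possible because each group had 1 sample and no result came from a test. Depth limits single fragments and the deepest bins, where few fusion reads remain.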

Other observations

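Chromosome X lay outside the rule. The Lamin A list left 10 gaps of 1 Mb or more on it, 15.2 Mb or 9.3% of its span, where the autosomes ranged from 23.6% to 42.1%. Their 1511 bins averaged −0.86 in the Lamin A profile and −0.59 in the Lap2b profile, with 8.67% and 14.8% of bins above 0. The longest, chrX:98240218-101244319 (3 Mb), averaged −0.72 and −0.58 and was covered by LADs of the Lap2b list over 14.7%. The lowest in the Lap2b profile, chrX:70154436-71765432, averaged −0.89 and −0.95.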
